A study of Mus musculus with 24 samples.

Results

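The genes described are 10 receptor genes best known from natural killer (NK) cells, of the 55401 genes in the deposited count tables: Klra1, Klra3, Klra7, Klra9, Klrb1c, Klrc1, Klrd1, Klrk1, Klrg1 and Ncr1. They were chosen by name with the read counts and shares of these same cells known, so that their levels and the contrast between the groups are descriptions. The cells were liver invariant natural killer T (LiNKT) cells of NOD mice, which become diabetic through spontaneous autoimmunity, sorted as live cells that bound αGalCer/CD1d tetramer and had an intermediate level of TCRβ. Treated mice had received αGalCer/CD1d-NPs, iron oxide nanoparticles coated with mouse CD1d that presents the glycolipid αGalCer, by vein at 20 µg per dose, 2 doses a week for 5 weeks, and cells were taken 2 to 3 days after the last dose. Control mice are labelled untreated in all 3 experiments used here, while the methods of the study also allow controls given nanoparticles without CD1d, and its text on the multiome names a vehicle. SmartSeq2, which reads full-length RNA of cells sorted singly into wells, was run on 3 male mice per group aged 13 to 15 weeks. The 10X multiome used 5 untreated and 4 treated males, given in the labels as of the same age, although a legend of the study gives them as younger. Whole genome bisulfite sequencing (WGBS) used 7 untreated females aged 17 weeks and 4 treated mice aged 16 weeks, as 3 replicates of cells per group. The deposited tables used here do not separate mice or replicates, each group is 1 sample, and no comparison has a replicate check or a test. Intervals are 95% intervals that cover counting error at most.

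iNKT cells carry an invariant T cell receptor for glycolipids on CD1d and, like NK cells, many of them bear receptors for major histocompatibility complex (MHC) class I and related ligands. The Ly49 proteins, encoded by the Klra genes, and the heterodimer of CD94 (Klrd1) and NKG2A (Klrc1) mostly inhibit the cell through immunoreceptor tyrosine-based inhibitory motifs (ITIMs), while NKG2D (Klrk1), NKp46 (Ncr1) and NK1.1 (Klrb1c) activate it through adaptor proteins. Inbred strains differ in which Ly49 genes they carry, and the reads of NOD cells were counted here on the C57BL/6 reference.

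All of these genes but Ncr1 lie on chromosome 6, most of them in the NK gene complex. In GRCm38, all from the GENCODE annotation, Klra1 spans chr6:130363917-130386874, Klra3 chr6:130323289-130337574, Klra7 chr6:130218605-130233322 and Klra9 chr6:130178675-130193112, each on the minus strand. Klrc1 lies at chr6:129666015-129678973 and Klrk1 at chr6:129610323-129623864 on the minus strand, and Klrd1 at chr6:129591782-129598775 on the plus strand. Klrb1c lies at chr6:128778485-128789215 and Klrg1 at chr6:122270596-122282882, both on the minus strand. Ncr1 lies at chr7:4337724-4345164 on the plus strand.

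The first 60 coding bases are printed from the C57BL/6 reference (GRCm38, 5′ to 3′ on the coding strand) to show how alike the Ly49 genes are and where the inhibitory and activating members part. Capitals mark codons that fit an ITIM (S, V, I or L, any residue, Y, any 2 residues, then V, I or L). Klra5, Klra4 and Klra8 are relatives that the reads of these cells turn on.
Klra1: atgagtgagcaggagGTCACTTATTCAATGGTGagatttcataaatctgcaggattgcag
Klra3: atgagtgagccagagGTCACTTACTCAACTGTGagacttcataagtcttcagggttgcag
Klra7: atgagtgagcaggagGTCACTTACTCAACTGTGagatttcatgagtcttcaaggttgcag
Klra9: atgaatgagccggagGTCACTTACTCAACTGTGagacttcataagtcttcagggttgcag
Klra5: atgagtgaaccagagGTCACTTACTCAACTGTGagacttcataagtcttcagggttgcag
Klra4: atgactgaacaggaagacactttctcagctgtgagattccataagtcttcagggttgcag
Klra8: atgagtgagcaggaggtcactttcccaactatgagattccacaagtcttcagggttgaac
Klrc1: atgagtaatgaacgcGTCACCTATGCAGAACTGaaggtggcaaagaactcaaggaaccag
Each stretch lies in 1 coding exon on the minus strand, namely Klra1 chr6:130380603-130380662, Klra3 chr6:130335740-130335799, Klra7 chr6:130231558-130231617, Klra9 chr6:130191242-130191301, Klra5 chr6:129911402-129911461, Klra4 chr6:130065243-130065302, Klra8 chr6:130128101-130128160 and Klrc1 chr6:129678851-129678910. Klra3 and Klra9 differed at 2 of these 60 bases, Klra3 and Klra5 at 1, and Klra1 and Klra4 at 13. In Klra1, Klra3, Klra7, Klra9, Klra5 and Klrc1 the motif fills bases 16 to 33, and in Klra4 and Klra8, which encode activating Ly49 receptors, no such motif is in the window. Klrg1, an inhibitory receptor for cadherins, has its motif at bases 13 to 30, and in the first 60 bases of Klrd1, Klrk1 and Klrb1c these letters do not occur.

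The likeness limits what a read can tell. Of all stretches of 50 bases in the exons of a gene, the share that also occurs in the exons of another gene was 35.6% for Klra9, 22.5% for Klra3, 13.3% for Klra7 and 1.13% for Klra1. Klra3 and Klra9 shared most with each other, 17.8% of the stretches of Klra3, and the shared stretches of Klra7 were all in Klra13-ps. Klrc1 had 46.3% of its stretches in another gene, 44.5% in Klrc2, which encodes the activating NKG2C. For Klrb1c the share was 13.98%. Klrd1, Klrk1, Klrg1 and Ncr1 shared none, so that their counts carry no such doubt.

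Of the 284 untreated and 282 treated SmartSeq2 cells in the tables, 273 and 251 carry a sub-cluster number in the study's cell list and were used, with a median of 635257 and 599896 reads per cell and a range of 4056 to 1398716. Untreated cells fell into sub-clusters 2 (228 cells), 4 (43) and 3 (2). Treated cells fell into 2 (61), 4 (133) and 5 (57), the last being the regulatory LiNKTR1 cells of the study. Every untreated cell and 239 of 251 treated cells had a read of 1 of 7 T cell and iNKT markers. Trav11, the iNKT receptor V segment, was read in 20.5% and 19.5% of cells, and Zbtb16, the iNKT factor PLZF, in 4.40% and 6.37%. The study rebuilt receptor sequences from SmartSeq2 cells and reports the Trav11 segment in nearly all productive TCRα chains. The share with counted Trav11 reads is thus not the share of cells that carry it. Eomes, 1 of the 8 NK cell markers used here, was read in 0 of 273 untreated cells, which allows a share of up to 1.10%, and in 1 treated cell. At least 1 of 4 macrophage markers, Lyz2 among them, was read in 11 treated cells, all in sub-cluster 2, and in 2 untreated cells, with a summed level of 1812 counts per 1000000 (CPM, treated) and 0.0116 CPM (untreated). Hepatocyte markers were read in 3 treated cells and B cell markers in 1 untreated cell. The 8 NK cell markers besides the receptors, which iNKT cells also express in part, summed to 3945 CPM (untreated) and 8568 CPM (treated), and their part in the results was not tested.

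The share of cells with a read was higher in treated than in untreated cells for each of the 10 genes. Across all cells, 6 of the 10 were at least 2-fold higher in treated cells by summed CPM (with 1 CPM added to each group), and 0 were 2-fold lower, where 20.1% of the 15052 genes with at least 10 summed reads were 2-fold higher and 17.2% lower. The median log2 ratio of the 10 was 1.28, against 0.02 over all genes. For 6 genes (Klra1, Klra3, Klra7, Klra9, Klrc1 and Ncr1) the interval of the treated share lay above that of the untreated share, which was the case for 0.771% of all genes, and the reverse, seen for 0 of the 10, for 0.764%. At 5 or more reads this held for 5 of the 10, beside 0.791% of all genes above and 0.664% below. All 10 passed the filter on reads, Klra3 only through the treated group, and their choice used this contrast, so that nothing further was read from these counts.

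**Figure D1:**
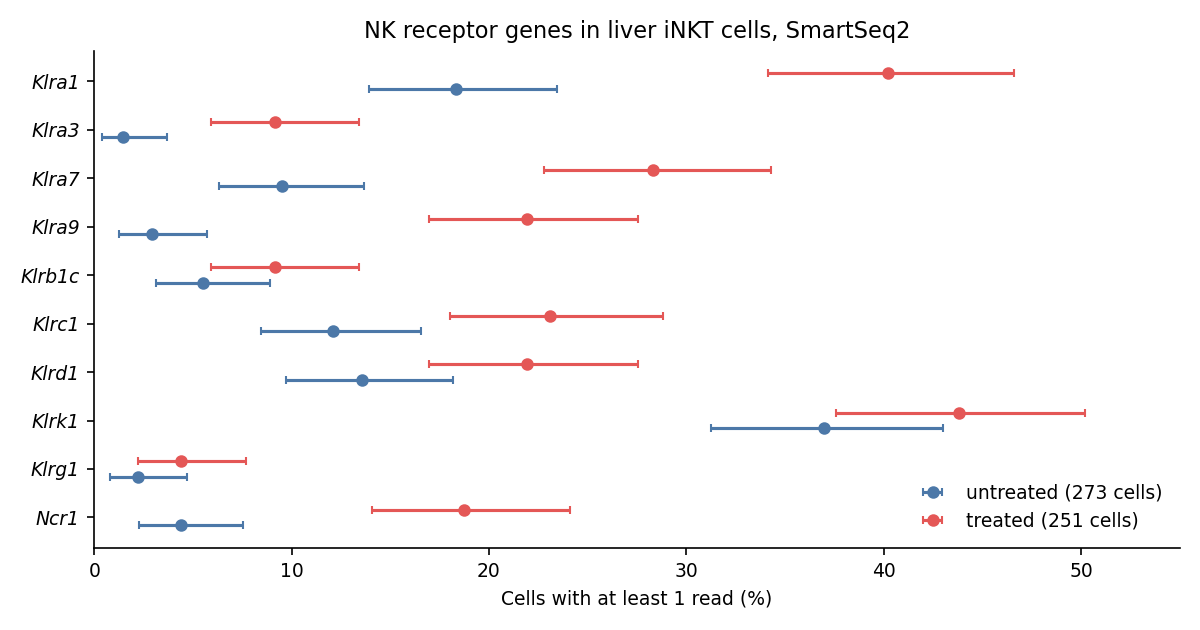
Share of SmartSeq2 cells with at least 1 read (x axis, percent) for each of the 10 NK receptor genes (y axis), untreated (273 cells, blue) and treated (251 cells, red), with exact binomial 95% intervals. The treated point lies to the right for every gene, from Klrg1 (2.20% and 4.38%) to Klra1 (18.3% and 40.2%), and the intervals overlap for Klrb1c, Klrd1, Klrk1 and Klrg1.

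Among the inhibitory Ly49 genes, Klra1 (Ly49A) was read in 50 of 273 untreated cells (18.3%, interval 13.9 to 23.4) and in 101 of 251 treated cells (40.2%, 34.1 to 46.6). Its summed level was 147 and 382 CPM, a log2 ratio of 1.37. The cells with Klra1 had a median of 422 reads of it in the untreated and 369 in the treated group, and a median level of 611 and 726 CPM.

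Klra9 (Ly49I) was read in 8 untreated cells (2.93%, 1.27 to 5.69) and 55 treated cells (21.9%, 16.95 to 27.5), and its level was 4.38 and 38.9 CPM, a log2 ratio of 2.89, the highest of the 10. Klra7 (Ly49G) was read in 9.52% (6.32 to 13.6) and 28.3% (22.8 to 34.3) of cells, and mostly by few reads, with a median of 1 read over untreated and 2 reads over treated cells that had any. With at least 5 reads asked for, 5 untreated cells (1.83%) and 22 treated cells (8.76%) had Klra7. Its level, 24.2 and 89.7 CPM (log2 ratio 1.85), rested on few cells, since 1 untreated cell held 75.7% of the untreated reads. Klra3 (Ly49C) had few reads in either group, 6 reads in 4 untreated cells and 115 reads in 23 treated cells, at most 31 in a cell.

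Reads of related Ly49 genes went together within cells. All 128 cells with at least 100 Klra1 reads also had Klra4 reads, a median of 19.1 per 100 Klra1 reads (quartiles 14.5 and 28.2), while 5.63% of the 373 cells without Klra1 had any. Klra13-ps was read in 96.9% of the 128 cells, at 7.63 per 100 Klra1 reads, and Klra7 in 63.3%, at 0.18 per 100. Each of the 26 untreated cells with a Klra7 read also had Klra1 reads. Cells with at least 100 Klra9 reads, 32 in all, had Klra8 reads in 87.5% and Klra10 reads in 93.8%, at medians of 93.2 and 31.4 per 100 Klra9 reads. The deposited counts alone do not tell, for these pairs, cells that express both genes from reads of 1 NOD gene spread over several C57BL/6 gene models.

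**Figure D2:**
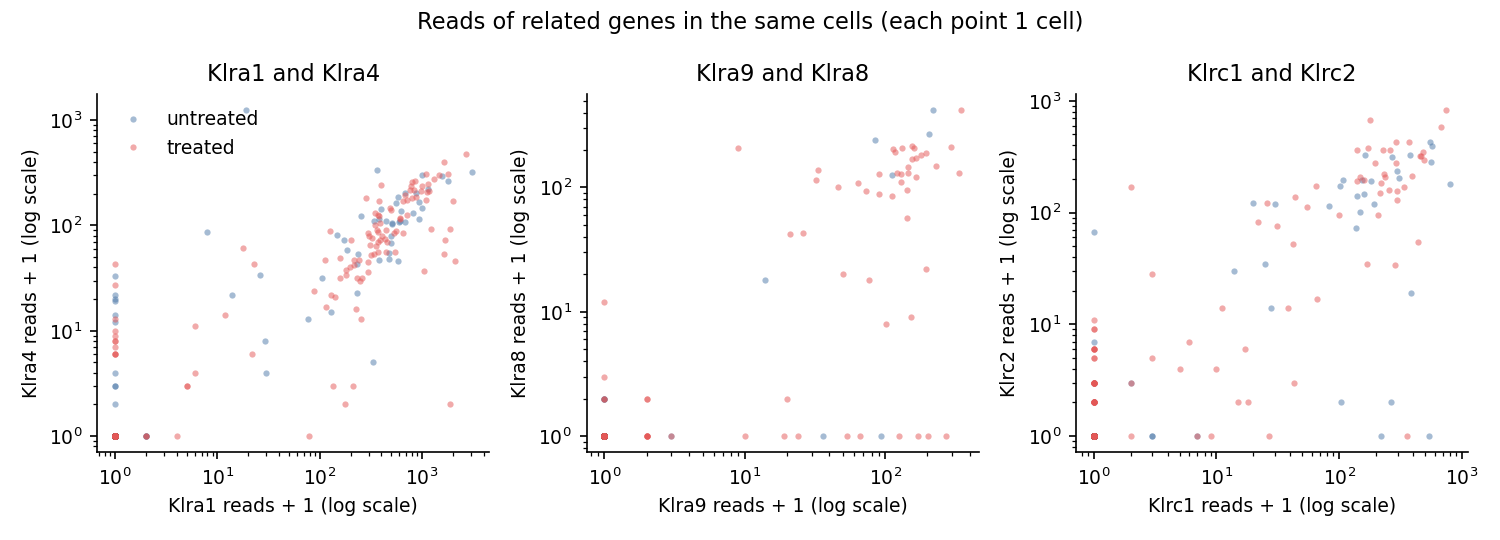
Reads per cell of Klra1 and Klra4, Klra9 and Klra8, and Klrc1 and Klrc2 (log axes, 1 read added, each point 1 cell, untreated blue, treated red). Cells with many reads of the first gene mostly lie along a band of reads of the second, at medians of 19.1, 93.2 and 78.5 per 100.

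In the same cells Klrc1 (NKG2A) was read in 12.1% (8.47 to 16.6) of untreated and 23.1% (18.04 to 28.8) of treated cells, at 40.2 and 70.1 CPM, a log2 ratio of 0.79. Of the 55 cells with at least 100 Klrc1 reads, 94.5% had Klrc2 reads, a median of 78.5 per 100, against 6.70% of the 433 cells without Klrc1. Klrd1 (CD94), its partner chain, was read in 13.6% (9.73 to 18.2) and 21.9% (16.95 to 27.5) of cells, at 131 and 301 CPM, a log2 ratio of 1.20. Both groups had cells with reads of each gene and no reads of the other, which does not show that the other was absent. With at least 5 reads asked for, 5 untreated cells had both Klrc1 and Klrd1, where the product of the shares gives 4.07, and 18 treated cells had both, where it gives 10.8. Thus 34.6% of the 52 treated Klrc1 cells had Klrd1 reads in these data.

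Among the activating receptors, Klrk1 (NKG2D), a receptor for stress-induced MHC-like ligands, was read in the most cells of both groups, 37.0% (31.3 to 43.0) and 43.8% (37.6 to 50.2). Its level was 810 and 1132 CPM, a log2 ratio of 0.48. Ncr1 (NKp46) was read in 12 untreated cells (4.40%, 2.29 to 7.55) and 47 treated cells (18.7%, 14.1 to 24.1), each time with many reads, 90 at the least. The level of Ncr1 was 191 and 759 CPM, a log2 ratio of 1.99. Klrb1c (NK1.1, whose antibody does not stain NOD cells) was read in 5.49% (3.11 to 8.90) and 9.16% (5.90 to 13.4) of cells, and its level over all cells was 40.4 and 39.8 CPM. Within sub-clusters it differed in opposite directions, at 47.9 and 2.82 CPM in sub-cluster 2 and at 3.99 and 73.95 CPM in sub-cluster 4. The reads came from few cells, as 3 cells held 83.4% of the untreated and 95.1% of the treated reads. Klrg1, the inhibitory cadherin receptor, was read in 6 untreated cells (2.20%, 0.811 to 4.72) and 11 treated cells (4.38%, 2.21 to 7.71), at 34.1 and 92.1 CPM.

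Levels were also put in order per kb of exon, with the merged exons of all annotated transcripts as the length. This length was 7.18 kb for Klrk1 and 1.24 to 2.96 kb for the other genes, so that the order depends on it. By CPM alone Klrk1 stood highest in both groups, at 810 and 1132 CPM. Sequence shared with related genes further limits the places of Klra9, Klra3, Klra7, Klrb1c and Klrc1. In treated cells Ncr1 stood highest with 493 CPM per kb, then Klrd1 (235), Klra1 (217) and Klrk1 (158), then Klra7 (70.9) and Klrg1 (65.1), Klrc1 (35.3), Klra9 (30.4), Klrb1c (13.4) and Klra3 (0.623). In untreated cells Ncr1 (124), Klrk1 (113) and Klrd1 (102) were followed by Klra1 (83.6), Klrg1 (24.1), Klrc1 (20.3), Klra7 (19.2), Klrb1c (13.6), Klra9 (3.43) and Klra3 (0.0281). The place of untreated Ncr1 rested on few cells, since 3 cells held 51.3% of its reads, and it was at 39.0 CPM per kb in sequencing lane 1, below Klrk1 (106), Klrd1 (106) and Klra1 (92.2), and at 284 in lane 2. Untreated Klra7 was at 0.392 CPM per kb in lane 1 and 54.6 in lane 2, and untreated Klrg1 at 36.8 in lane 1 and 0 in lane 2, so that their places also changed with the lane. With 1 sample a group the spread between mice is unknown, and neighbours in these orders cannot be told apart beyond it.

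The cell names give 2 sequencing lanes, and the size of the difference was unlike between them. Ncr1 was at 60.05 and 850 CPM in lane 1 (log2 ratio 3.80) and at 437 and 562 CPM in lane 2 (0.36). For Klrc1 the log2 ratio was 1.32 in lane 1 and −0.01 in lane 2, and for Klra7 5.82 and 0.57. Klra9, with 3.90 and 1.63, Klra1, with 1.27 and 1.59, and Klrd1, with 1.25 and 1.07, were at least 2-fold higher in both lanes. In lane 1, 6 of the 10 genes were 2-fold higher and 0 lower, beside 22.6% and 20.6% of all genes. In lane 2, 5 were higher and 0 lower, beside 27% and 26.4% of all genes. These 5 were Klra1, Klra9 and Klrd1, and Klra3 and Klrg1, which passed the filter there only through the treated group, with 4 and 0 untreated reads. In lane 1 Klrg1 was at 52.1 and 79.9 CPM, a log2 ratio of 0.61. Klrg1 was read in 0 of 89 untreated cells of lane 2, which allows a share of up to 3.37%, and in 4 of 78 treated ones. The share of cells with Ncr1 was 2.17% and 18.5% in lane 1 and 8.99% and 19.2% in lane 2.

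Each of the 10 genes was read in a larger share of treated cells in sub-cluster 4 than in sub-cluster 2 or 5. The sub-clusters were made by the study from expression, so that this is a description of sub-cluster 4. It held 15.8% (11.6 to 20.6) of untreated and 53.0% (46.6 to 59.3) of treated cells. In it Klrk1 was read in 55.8% of untreated and 70.7% of treated cells, Klra1 in 44.2% and 54.9%, Ncr1 in 25.6% and 34.6%, and Klrd1 in 48.8% and 35.3%. Of the treated cells with Ncr1, 46 of 47 were in sub-cluster 4, and of the untreated ones 11 of 12.

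**Figure D3:**
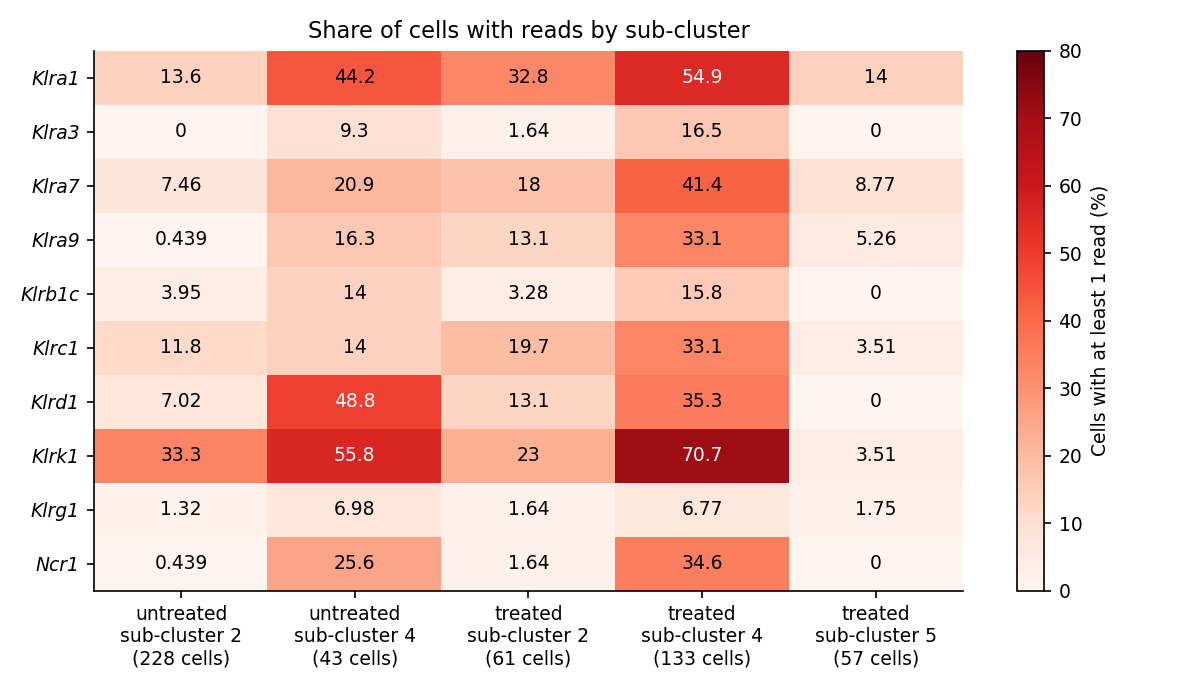
Share of cells with at least 1 read (percent, printed and as colour) of the 10 genes (y axis) in each sub-cluster of each group with more than 2 cells (x axis). The columns of sub-cluster 4 are darkest, with up to 70.7% for Klrk1 in treated cells, and sub-cluster 5 shows 0 for Klra3, Klrb1c, Klrd1 and Ncr1.

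Within sub-cluster 4 the levels of 5 genes were at least 2-fold higher in treated cells, where 37.5% of the 11365 genes with reads were, and 0 were 2-fold lower, where 17.9% were. The 5 were Klrb1c, Klra7, Klrc1, Klra9 and Klra3, the last with 6 untreated and 114 treated reads, so that it passed the filter only through the treated group. The summed level of the 8 other NK cell markers in sub-cluster 4 was 6477 CPM (untreated) and 13311 CPM (treated), and their part in these values was not tested. The median log2 ratio was 0.91 for the 10 genes and 0.33 for all. The log2 ratio was smaller than over all cells for Ncr1 (0.38), Klrk1 (0.35), Klrd1 (−0.07), Klra1 (0.75), Klrg1 (0.81) and Klra9 (1.52). It was larger than over all cells for Klrb1c (3.91), Klra7 (2.18), Klrc1 (1.68) and Klra3 (1.01). In sub-cluster 2, 4 genes were 2-fold higher and 2 lower, beside 19.2% and 33.9% of all genes. The 4 were Klra9, Ncr1, Klra1 and Klrd1, of which Ncr1 rested on 1 cell in each group, with 2314 and 2403 reads. There Klra9 was read in 1 of 228 untreated cells (0.439%) and 8 of 61 treated cells (13.1%), and Klra1 in 13.6% (9.43 to 18.7) and 32.8% (21.3 to 46.0). Klrk1 went the other way, with 33.3% (27.2 to 39.9) and 22.95% (13.2 to 35.5) of cells and 676 and 403 CPM. The 2 lower genes were Klrb1c, at 47.9 and 2.82 CPM in 9 and 2 cells, and Klrg1, at 24.1 and 8.40 CPM in 3 cells and 1 cell. Without the sub-cluster 2 cells that had a B cell, macrophage or hepatocyte marker, Klra1 was read in 13.3% of 225 untreated and 42.6% of 47 treated cells, and Klrk1 in 33.3% and 27.7%, at 679 and 484 CPM. Of the 61 treated cells in sub-cluster 2, 49 had a read of a T cell or iNKT marker. Of the other 12, 1 had a read of any of the 10 genes, and their part in the values of sub-cluster 2 was not tested further.

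Sub-cluster 5, the LiNKTR1 cells, had reads of few of these genes, with a mean per cell of 0.281 Ly49 genes and 0.0877 others. In untreated sub-cluster 2 the means were 0.215 and 0.579, and compared with these only the others were fewer in sub-cluster 5. In treated sub-cluster 2 the means were 0.656 and 0.623, and compared with these both were fewer in sub-cluster 5. Of the 57 cells of sub-cluster 5, 0 had a read of Klrd1, Ncr1, Klrb1c or Klra3, which allows a share of up to 5.26%. Klrk1 and Klrc1 were read in 2 cells each (3.51%), Klra1 in 8 (14.04%), Klra7 in 5, Klra9 in 3 and Klrg1 in 1. The cells with Klra7 had at most 3 reads of it. In these cells Cd3e, the T cell receptor subunit, was read in 91.2%, and in treated sub-cluster 4 in 81.2%.

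Many cells had reads of several of the 10 genes. Ly49 genes read in the same cell are counted separately here, although their reads may come from 1 NOD gene, as said above. Of untreated cells, 54.6% had reads of at least 1 of the 10 genes and 13.6% (9.73 to 18.2) of at least 3, and of treated cells 70.1% and 43.8% (37.6 to 50.2). In 5 untreated and 37 treated cells 5 or more were read. Within sub-cluster 4 the median was 2 genes in untreated and 3 in treated cells, with at least 3 genes in 46.5% (31.2 to 62.3) and 71.4% (63.0 to 78.9). In sub-cluster 2, 7.46% and 21.3% of cells had at least 3, and 3.51% and 14.8% at 5 or more reads per gene. In sub-cluster 5 it was 3.51% at 1 read and 0 of 57 cells at 5 reads, which allows up to 5.26%. With at least 5 reads asked for each gene, 8.42% of untreated and 34.7% of treated cells had at least 3. Then 3 untreated and 17 treated cells had 5 or more genes, and in sub-cluster 4 34.9% and 58.6% of cells had at least 3.

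**Figure D4:**
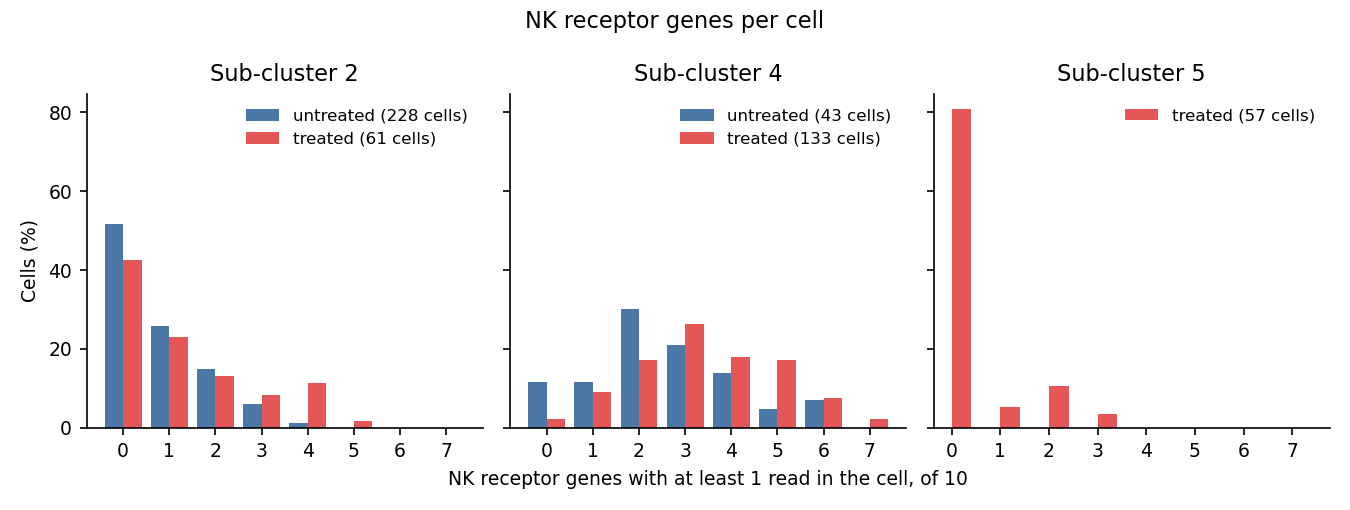
Percent of cells (y axis) by the number of the 10 genes with at least 1 read in the cell (x axis), for sub-clusters 2, 4 and 5, untreated blue and treated red. In sub-cluster 4 the treated bars peak at 3 genes and reach 7, and in sub-cluster 5 most cells (46 of 57) have 0.

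No 1 set of receptor reads was common to the cells. Cells had a median of 861 (untreated) and 850 (treated) genes with reads. A gene without a read may still be expressed, and the part of this in the combinations was not tested. At 5 or more reads, 36 different combinations were seen among the 146 untreated cells with any of the 10 genes and 83 among the 176 treated cells with any. Klrk1 alone (43 untreated and 14 treated cells), Klra1 alone (12 and 12) and Klra1 with Klrk1 (10 and 12) were among the most frequent. Klrc1 with Klrk1 and no other was seen in 12 untreated cells. In treated sub-cluster 4, 53 of 133 cells had both Klra1 and Klrk1, where the product of the shares gives 48.8. There 15 cells had both Klrd1 and Ncr1, where it gives 15.6, and 18 had both Klrc1 and Klrd1, where it gives 13.2. Among Ly49 genes, Klra9 went with Klra1 in 7 of 7 untreated and 32 of 47 treated cells.

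Cells with 5 or more Ly49 reads numbered 70 among untreated and 153 among treated cells, and the gene with the most reads held a median of 80.2% and 73.9% of a cell's Ly49 reads. In untreated cells Klra1 led in 45.7% and Klra5 in 21 of the 70 cells, and in treated cells Klra1 led in 35.9% and Klra5 in 42.5%. Klra9 led in 0 and 4 cells, and Klra7 in 2 and 10.

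Treated cells with Ncr1 differed from other treated cells in further genes. Gzma, a granule protease, was read in 85.1% (71.7 to 93.8) of the 47 cells with Ncr1 and 28.9% (22.8 to 35.7) of the 204 others. Gzmb was read in 87.2% and 41.2%, and Fcer1g, an adaptor of NKp46, in 83.0% (69.2 to 92.4) and 35.3% (28.7 to 42.3). Il10, read in 15.7% of the others, and Il21, read in 12.7%, were in 0 of 47, which allows a share of up to 6.38%. Cd3e was read in 80.9% and 79.4%. Eomes was read in 0 of 47, and so was the iNKT marker Zbtb16, with the same limit of 6.38%. Of these 47 cells 46 were in sub-cluster 4, and within treated sub-cluster 4 Gzma was read in 87.0% (73.7 to 95.1) of 46 cells with Ncr1 and 60.9% (49.9 to 71.2) of 87 without, while Il10 was read in 0 and 1 of them.

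Across the 524 cells, the gene whose log2(CPM + 1) was most like that of each receptor was in most cases a near relative. Pearson's r was 0.93 between Klra1 and Klra4, 0.91 between Klra9 and Klra10, 0.90 between Klrc1 and Klrc2, 0.69 between Klrb1c and Klrb1a, 0.55 between Klra7 and Klra13-ps and 0.51 between Klra3 and Klra10. Shared stretches of 50 bases made up 44.5% of those of Klrc1 for Klrc2 and 13.3% of those of Klra7 for Klra13-ps, but 1.13% of those of Klra1 for Klra4 and 2.25% of those of Klrb1c for Klrb1a. For the receptors with no shared stretch of 50 bases the values were lower: 0.45 between Ncr1 and Gzma, 0.41 between Ncr1 and Cd7, 0.39 between Klrk1 and Ccl5, a chemokine, and 0.34 between Klrd1 and Cd7. The cells share libraries and depth, and both groups are pooled in these values.

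The other genes of the pathway were taken from 6 lists, 49 genes of which had at least 10 summed reads. Over all 6 lists 23 were at least 2-fold higher in treated cells and 3 lower, with a median log2 ratio of 0.69, beside 20.1% and 17.2% of all genes. Of the 23, Crtam, Cdh1 and Klra17 passed the filter on reads only through the treated group. Klra17 and Fcgr3 were not 2-fold higher without cells that had a B cell, macrophage or hepatocyte marker. Of 9 other Ly49 genes, 6 were higher and 0 lower (median 2.15), among them Klra5 at 132 and 807 CPM (log2 ratio 2.61). Klra14-ps, the least different of those with at least 100 summed reads, had a log2 ratio of 0.68. Klra17, at 0.0464 and 11.8 CPM, was at 0.0283 CPM in treated cells without those that had a marker of another cell type. Without such cells in either group, 5 of 8 Ly49 genes past the filter were higher and 0 lower, with a median log2 ratio of 1.68.

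All 3 NKR-P1 relatives with reads were higher: Klrb1a (log2 ratio 1.98), Klrb1b (3.71) and Klrb1f (2.39). Klrb1b, an inhibitory receptor for Clr-b, was at 0.238 and 15.2 CPM. In the CD94 and NKG2 list 4 of 5 were higher: Klrc2 (1.29), Klrc3 (3.05), which encodes NKG2E and was at 12.6 and 112 CPM, Klre1 (1.14) and Klri1 (1.70). Klri2 was at 115 and 87.5 CPM (−0.39). Of 8 other receptors shared by NK and T cells, Cd244a (105 and 302 CPM), Cd7 (246 and 697 CPM) and Fcgr3 (9.01 and 59.9 CPM) were higher, and Crtam had 0 reads in the untreated group and was at 3.53 CPM in the treated one. Without cells that had a marker of another cell type, Fcgr3 was at 9.08 and 17.9 CPM (log2 ratio 0.91), no longer 2-fold higher, and 3 genes of this list were higher. Cd96, a receptor for CD155, was lower at 507 and 146 CPM (−1.79).

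Among 15 adaptors and signalling genes, Tyrobp, which encodes DAP12, the adaptor of activating Ly49 receptors, was at 35.3 and 271 CPM (log2 ratio 2.91). Fcer1g was at 120 and 496 CPM (2.03) and the kinase gene Syk at 0.481 and 36.6 CPM (4.67). These 3 are also myeloid genes, and without the cells that had a B cell, macrophage or hepatocyte marker their ratios were 2.42, 1.89 and 2.19. Tyrobp was then at 35.6 and 195 CPM, Fcer1g at 122 and 453 CPM, and Syk at 0.485 and 5.78 CPM. Hcst, which encodes DAP10, the adaptor of NKG2D, was at 144 and 190 CPM (0.40). Pik3r1, a subunit of phosphoinositide 3-kinase, was lower at 202 and 88.1 CPM (−1.19). Of 9 ligand genes 3 were higher and 1 lower: H60b, an NKG2D ligand (11.5 and 30.9 CPM), Clec2d, which encodes Clr-b (1.53 and 16.95 CPM), and Cdh1 (0 reads and 13.0 CPM) were higher, and Clec2i was lower (53.2 and 11.2 CPM). B2m, part of MHC class I, was at 6030 and 6187 CPM (0.04). Klrb1a, Klrb1f, Klrc2, Klre1, Klri1, Cd7, Fcgr3, Crtam, Fcer1g, Syk, Klra17, Hcst, Clec2d, Clec2i and Cdh1 are named because they make up small counts or pair with a receptor, and were chosen after their values were seen.

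Methylation was deposited as 2873 differentially methylated regions, 1983 lower and 890 higher in treated cells. Of these, 2 lie within 50 kb of a receptor gene, and the nearest region of the other 8 genes lies 382405 to 1154540 bases away. For comparison, 11.3% of 22028 protein-coding genes have a lower region within that distance and 6.90% a higher one, so that 1 of each among 10 genes is near the background. They are printed from the GRCm38 plus strand with CpGs in capitals to show the cytosines that the bisulfite values belong to. Of the region near Klrg1 the middle 300 of 314 bases are printed, which hold 8 of its 9 CpGs.
Klrg1 region, chr6:122270153-122270452: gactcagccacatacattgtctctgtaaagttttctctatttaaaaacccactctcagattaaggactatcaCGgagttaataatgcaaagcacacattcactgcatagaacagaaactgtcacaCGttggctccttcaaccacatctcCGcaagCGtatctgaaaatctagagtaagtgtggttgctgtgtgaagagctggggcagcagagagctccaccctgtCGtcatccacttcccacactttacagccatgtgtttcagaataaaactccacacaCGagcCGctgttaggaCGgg
Klrb1c region, chr6:128833102-128833327: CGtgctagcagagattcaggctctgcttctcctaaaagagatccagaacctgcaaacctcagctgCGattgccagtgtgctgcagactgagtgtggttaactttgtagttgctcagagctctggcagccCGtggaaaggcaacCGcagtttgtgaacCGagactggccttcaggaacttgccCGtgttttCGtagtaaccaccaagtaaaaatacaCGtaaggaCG

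The region near Klrg1 spans chr6:122270146-122270459 (314 bases), begins 137 bases beyond the 3′ end of the gene and is intergenic. Its deposited mean methylation was 24.2% in untreated and 5.23% in treated cells. Over its 18 CpG cytosines in the site table, methylation ranged from 15% to 35% in untreated and from 0% to 9% in treated cells (means 25.3% ± 6.14 and 4.89% ± 2.85, SD over sites), and 18 of 18 were lower in treated cells. The sites of a group share their DNA and are not replicates.

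The region near Klrb1c spans chr6:128833102-128833327 (226 bases) and lies 43887 bases upstream of Klrb1c. Klrb1b, 6787 bases away, is the nearest annotated gene, and no gene overlaps the region. Its mean methylation was 5.36% in untreated and 30.5% in treated cells. Its 18 CpG cytosines ranged from 0% to 15% in untreated and from 13% to 49% in treated cells (means 7.33% ± 3.94 and 30.4% ± 10.5), 0 of 18 being lower in treated cells. Read depth is not in the tables used here, and the precision of these fractions is unknown. The untreated mice were female, and whether the treated mice were is not stated.

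Chromatin accessibility came as 1 table of fragments for both groups, whose cell barcodes end in 1 or 2. Which ending is which group is not given, so that values are set side by side by ending only. Barcodes with at least 1000 fragments numbered 8565 for ending 1 and 7237 for ending 2, with a median of 7104 and 8591 fragments and 162817764 and 149740716 fragment ends, the points where the transposase cut. The 2 endings shared 100 barcode sequences. Within 2 kb of the transcription start site (TSS), 4 of the 10 genes had at least 1.5 times as many ends per 1000000 with ending 2, where 12.1% of 16305 protein-coding genes did, and 0 with ending 1, where 2.59% did.

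Ncr1 differed most, with 1.48 ends per 1000000 (1.30 to 1.68) with ending 1 and 6.53 (6.13 to 6.95) with ending 2, a log2 ratio of 2.14. Both ends of a fragment were counted, and the 241 and 978 ends at Ncr1 came from 100 and 395 barcodes. The intervals take each end as separate and are therefore too narrow. Klrg1 had 3.03 and 6.004 (0.99), Klra7 2.40 and 4.40 (0.87) and Klra9 4.42 and 8.09 (0.87). Little difference was seen for Klra1 (5.80 and 6.25), Klrd1 (7.87 and 8.38) and Klrc1 (27.6 and 26.8). Klrk1 had 10.4 (9.92 to 10.9) and 8.82 (8.35 to 9.30), Klrb1c 3.14 and 3.96, and Klra3 0.418 and 0.394, among the lowest. Cd3e had 61.3 and 63.5. Over gene bodies 4 of 10 were 1.5 times higher with ending 2, where 8.60% of 18334 genes were (2.79% with ending 1), namely Klra7, Klra9, Klrc1 and Ncr1.

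Where the ends lay differed between the genes. In bins of 200 bases, those of Ncr1 peaked just before the TSS, at 0.516 and 2.46 per 1000000 for endings 1 and 2. Around Klrc1 the highest bin was centred 1700 bases upstream, at 11.3 and 7.45 per 1000000, higher with ending 1. In the bin just after the Klrc1 TSS the values were 2.48 and 4.19, higher with ending 2, and within 1 kb of the TSS its log2 ratio was 0.71. Klrg1 peaked 2100 bases upstream (1.43 and 2.37), and Klra9 4500 bases upstream (16.96 and 15.7). For Klrk1 the ratio was −0.24 within 2 kb and 0.30 within 1 kb, and for Klrb1c 0.33 and −0.34, so that their direction depended on the window.

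**Figure D5:**
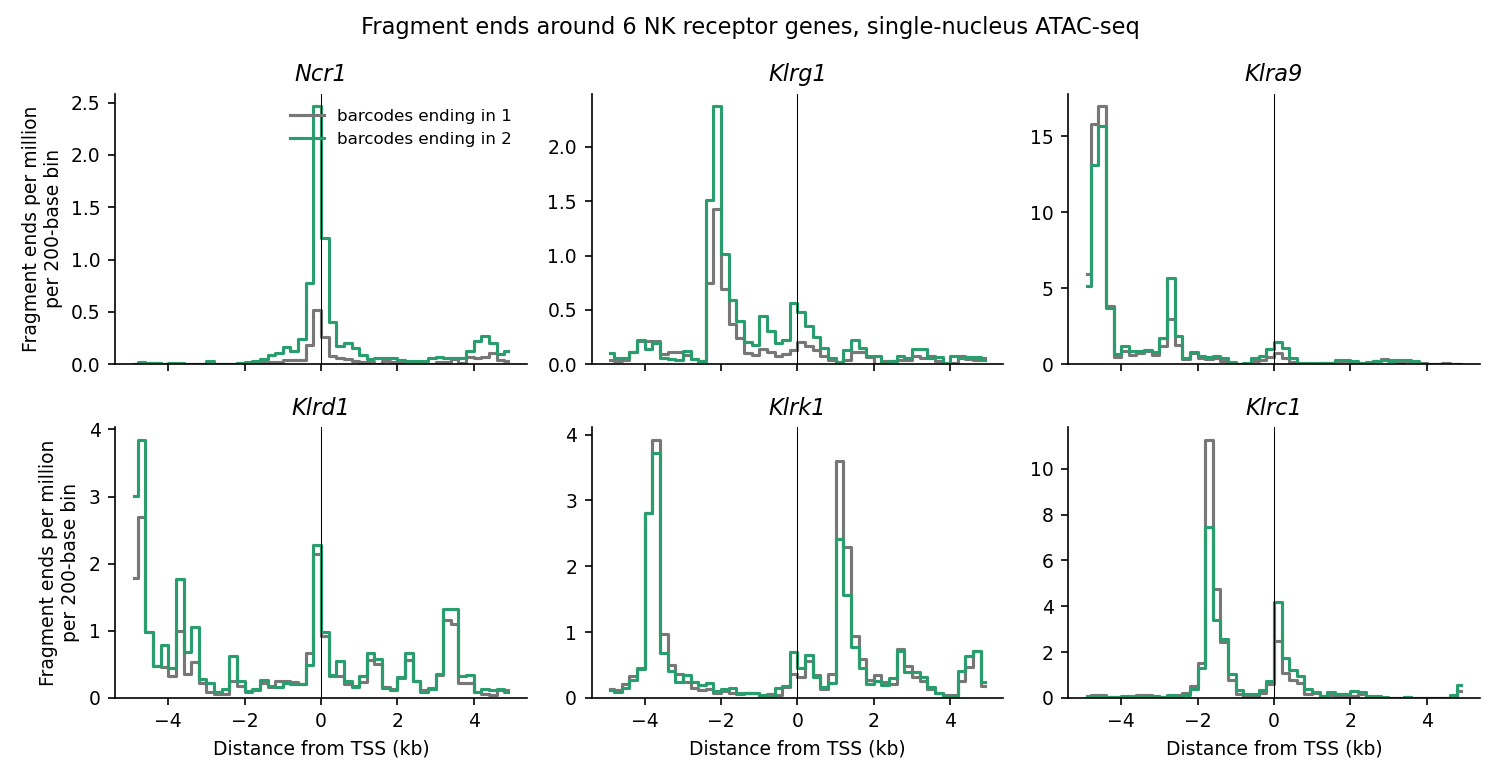
Fragment ends per 1000000 in bins of 200 bases (y axis, own scale in each panel) against distance from the TSS in kb (x axis), for barcodes ending in 1 (grey) and 2 (green). At Ncr1 the peak before the TSS stands at 0.516 and 2.46, and at Klrc1 the upstream peak at 11.3 and 7.45.

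Barcodes that hold more than 1 cell were not removed here. By barcode, 100 of 8565 with ending 1 (1.17%, 0.951 to 1.42) and 395 of 7237 with ending 2 (5.46%, 4.95 to 6.01) had an end near the Ncr1 TSS. With ending 2, those 395 had more ends than the other 6842 at Klrd1 (17.8 and 7.69 per 1000000), Klrk1 (16.3 and 8.27), Klrb1c (9.76 and 3.53), Klra9 (14.1 and 7.66) and Klrg1 (11.8 and 5.58). Ends at Gzma were 57.2 and 21.1 per 1000000 and at Il21 5.17 and 21.7, while Cd3e (68.1 and 63.2) and Actb (128 and 124) stood close together. The 395 barcodes were deeper, with a median of 10972 fragments against 8424, and the part of depth in these values was not tested. Barcodes with ends at 3 or more of the 10 genes made up 3.43% with ending 1 and 6.02% with ending 2. At the methylated regions, ends per 1000000 were 4.70 (4.38 to 5.05) and 1.90 (1.68 to 2.13) for the one near Klrb1c, and 14.4 (13.8 to 15.0) and 10.7 (10.2 to 11.3) for the one near Klrg1.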

How the data were processed

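SmartSeq2: the authors aligned reads with STAR to GRCm38 and deposited raw counts per gene and cell, which hold no molecular identifiers. The 524 cells with a sub-cluster in the study's own list were used (273 untreated, 251 treated), and no doublet caller was run on these cells or on the droplet barcodes. Counts were summed per group and scaled to CPM, with log2 ratios on CPM + 1 over genes with at least 10 summed reads. Exact binomial and Poisson 95% intervals cover counting error at most, since reads are not molecules, and a share of 0 allows up to 3 cells. WGBS: reads were mapped with BSMAP to mm10 and groups compared with metilene, and the authors deposited methylation as a fraction per cytosine and per region, with 1 value per group and no depth. The study describes 3 WGBS replicates per group, and how they became 1 value is not given in the sources used here. The deposited q-value served only as a threshold of 0.01 in an alternative, and the deposited group comparisons are not printed. ATAC: the deposited fragment table (Cell Ranger ARC, BWA-MEM to GRCm38, duplicates removed) gives counts of read pairs, and each fragment was counted once, by both ends. Python 3.11.15, numpy 2.4.6, pandas 2.3.3 and scipy 1.17.1 were used, and scripts were tested on simulated data. The 10 genes, the lists and the rules were chosen with earlier results of these data known. Named genes were the 10, the largest rise and fall of each list (at least 100 summed reads, and reads in 5% of the cells of a group), the 3 genes most correlated with each receptor read in at least 20 cells (r of at least 0.3), and regions within 50 kb. Other data types of the series were not used here.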

Additional observations from a re-analysis of the deposited data

How the results depend on the processing

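Each group is 1 sample, so that differences between mice and between groups cannot be told apart. No paired analysis was possible because the tables hold 1 sample per group, and no replicate could be left out. Of 247 recomputed values, 37 answer a comparison and 34 of them stayed close to the value reported. Of the other 210, 26 moved and 184 did not. Asking for 5 reads per gene in place of 1 moved the share of cells with at least 3 receptor genes read to 8.42% in untreated and 34.7% in treated cells. Of the 10 genes, 5 have at least 10% of their exonic stretches of 50 bases in another gene, and 2 with stretches of 75 bases. The count of genes at least 2-fold higher in treated cells (6) ranged from 5 (mean of each cell's CPM, or lane 2) to 7 (0.1 CPM added), and the count of shares with separate intervals (6) from 4 (10 reads) to 6. Thinned to 100000 reads per cell, with 3 cells left out of each group, 5 had separate intervals, and the shares with Ncr1 were 4.44% and 18.5%. The 2 alternatives on which cells to use were chosen after seeing the data. Without cells that had a B cell, macrophage or hepatocyte marker, and with only cells that had a T cell receptor gene read, 6 genes were 2-fold higher, 6 shares had separate intervals, and 46.4% and 46.0% of treated cells had at least 3 receptor genes read. The 2 methylated regions stood under all 3 alternatives tried, and 4 or 5 genes had 1.5 times more fragment ends with ending 2 under 3 alternatives.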
